A study of Mus musculus with 9 samples.

Results

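The ribosomal DNA (rDNA) summits are the binding peaks of UBTF that the deposited peak lists place on the single copy of the mouse rDNA repeat. Every line of the 6 UBTF lists that names the rDNA sequence was taken, which gave 356 summits of 1796909 in all. A summit is the point of highest signal within a called region, and each was placed in 1 of 7 parts of the repeat by its distance from the repeat's first base. The 5' external spacer covers positions 1 to 4007, 18S covers 4008 to 5877, the internal spacers with 5.8S cover 5878 to 8122, 28S covers 8123 to 12849 and the 3' external spacer covers 12850 to 13403. The intergenic spacer covers 13404 to 41000, and everything above 41000 is called the upstream region here, because in the head-to-tail array it lies just before the next gene and holds the spacer promoter, the enhancer repeats and the gene promoter.

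The cells were pre-B cells sorted by flow cytometry from mouse bone marrow as high for B220 and low for IgM and IgD, per the labels; the study's methods give the malignant cells as negative for IgM and IgD and take them from mice of both sexes, the others from females. Wild type mice and premalignant Eµ-Myc mice were 4 to 6 weeks old, and malignant Eµ-Myc mice were 10 to 20 weeks old and had developed lymphoma. All were on a C57BL/6 background, with the Eµ-Myc transgene, in which an immunoglobulin heavy chain enhancer drives Myc in B cells, kept heterozygous. Each stage had 2 UBTF libraries, numbered replicates 1 and 2, and the 3 input samples were not analysed here.

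UBTF is an HMG-box protein that binds along active rRNA genes and keeps their chromatin open for RNA polymerase I. That polymerase starts at the gene promoter and makes a long precursor in which the external and internal spacers flank the 18S, 5.8S and 28S rRNAs; the spacers are cut away and degraded. The intergenic spacer between genes is not part of the precursor, and near its end a spacer promoter and a row of enhancer repeats lie upstream of the gene promoter.

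The lists held from 78113 to 575674 peaks, and rDNA made up 0.0124% to 0.0749% of them. The score of a peak is in units of the authors' peak caller and is not scaled between libraries, so each summit is given here as a percent of the best rDNA summit of its own library. That best summit lay upstream in wild type replicate 1 and in the transcribed unit in all others. A percent in the unit of wild type replicate 1 therefore depends on its upstream score. The lists also differed in peak width. The narrowest peak of a list was 240 to 260 bp in wild type replicates 1 and 2 and in premalignant replicate 1 (the narrow set) but 670 to 800 bp in premalignant replicate 2 and both malignant libraries (the wide set), so that peak width and the step from wild type to malignant cannot be told apart. Sequencing depth is unknown, the lists hold no expression by which to check the cell type, and on a sequence with many copies per cell, more occupied copies and more UBTF per copy cannot be told apart. The study aligned reads to 1 rDNA copy and describes the copy number as highly variable. Copy number was not measured here. It may therefore enter the scores, ranks and ratios of rDNA against peaks elsewhere, and their order by stage. Within the transcribed unit neighbouring summits stood a median of 383 to 639 bp apart in the different libraries and never closer than 199 bp, so a summit stands for a stretch of signal and not for a single bound site.

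In all 6 libraries called UBTF signal covered the transcribed unit from end to end and a second, shorter stretch upstream of the next gene, with very little signal between them. The unit also held weak summits, with 18S at most at 2.99% in premalignant replicate 2 and 0.862% in malignant replicate 2. The 20 to 34 summits of the transcribed unit in each list held 79.0% to 92.4% of the summed rDNA score, and the upstream region held 5.64% to 20.3%. The intergenic spacer held at most 3.36%. In every library all summits of the unit shared 1 called region, which began at the start of the repeat. It ended between positions 15053 and 15923, past the end of the unit. The widest stretch of the unit with no summit in any list ran from 9439 to 10123 within 28S.

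**Figure D1:**
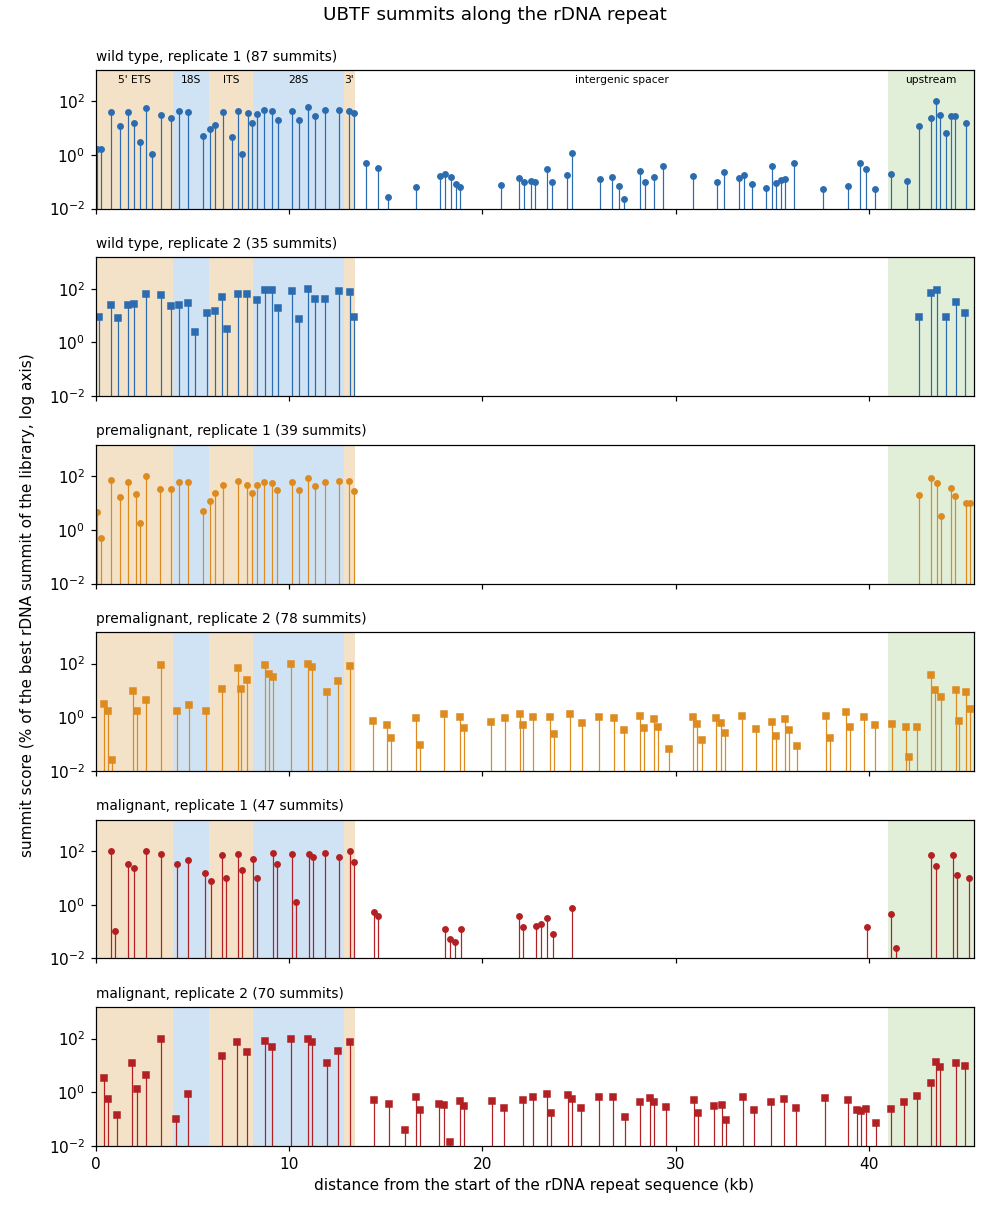
Each panel is 1 UBTF library. The x axis is the distance from the start of the rDNA repeat in kb, the y axis is the summit score as a percent of the library's best rDNA summit on a log axis, each stem is 1 summit, and shading marks the parts of the repeat. High stems stand in the transcribed unit and the upstream region in all 6 libraries, beside stems as low as 0.0249% in the unit (premalignant replicate 2). Intergenic stems stay at or below 1.61% and are missing in wild type replicate 2 and premalignant replicate 1.

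The 5' external spacer, the first stretch that RNA polymerase I transcribes, held 49 summits. Its best summit reached 58.3% and 66.0% of the best rDNA summit for wild type, 100% and 90.8% for premalignant, and 100% and 94.1% for malignant libraries. Both wild type values lay below all 4 Eµ-Myc values. The stage means were 62.2% ± 5.4 (SD, n = 2), 95.4% ± 6.5 and 97.0% ± 4.2. The premalignant mean was 33.3 points above wild type and the malignant mean 34.9 points above it (two-sided exact permutation test, p = 0.333 for each, Benjamini-Hochberg adjusted p = 0.875 over 21 tests, where 0.333 is the smallest p that 2 libraries against 2 can give). The malignant mean was 1.64 points above the premalignant mean, with overlapping values (exact permutation p = 1). Within the narrow set premalignant minus wild type was 37.8 points, and within the wide set malignant minus premalignant was 6.23 points. With each part scaled to the median part of its library, premalignant minus wild type was 22.1 points and malignant minus wild type 12.2 points. Neither then gave the smallest p possible.

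The best summit of the 5' external spacer was not the same one in each library. It lay between 2608 and 2612 in replicate 1 of every stage and in wild type replicate 2, and at 3399 and 3387 in premalignant replicate 2 and malignant replicate 2. All 6 libraries had summits at both places. At the first place the score was 58.3% and 66.0% for wild type, 100% and 4.59% for premalignant, and 100% and 4.29% for malignant libraries. At the second it was 30.3% and 60.2% for wild type, 34.4% and 90.8% for premalignant, and 78.2% and 94.1% for malignant libraries. Replicate 2 of each Eµ-Myc stage was therefore far below its partner at the first place and above it at the second, and at the first place the spread within each Eµ-Myc stage was wider than any difference between stage means. The difference from wild type also depends on which statistic stands for the spacer: premalignant minus wild type was -13.4 points by the median score of its summits and -6.27 points by the sum of scores.

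The gene for 18S, the RNA of the small ribosomal subunit, held 18 summits. By best summit it was the weakest part of the transcribed unit in all libraries but wild type replicate 1. Its best summit reached 42.4% and 29.6% for wild type, 61.2% and 2.99% for premalignant, and 46.2% and 0.862% for malignant libraries. The low values belonged to the same 2 libraries that were low at 2608. In malignant replicate 2 the best 18S summit ranked 98th in its list and scored less than the median of the best 100 peaks outside rDNA, at 0.638 times that median, while in malignant replicate 1 it scored 26.7 times the corresponding median. The stage means of 36.0% ± 9.0, 32.1% ± 41.1 and 23.5% ± 32.1 (SD, n = 2) overlapped fully, with differences of -3.92 to -12.5 points (exact permutation p of 0.667 to 1). Malignant replicate 2 also had the widest stretch of the unit free of summits in any single library, 1763 bp from 4789 to 6552, across the end of 18S and the start of the first internal spacer.

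The internal spacers, which separate the rRNAs in the precursor and hold the short 5.8S between them, had 31 summits and the steadiest best position. It fell between 7338 and 7361 in all 6 libraries. The score there was 41.6% and 61.4% for wild type, 63.4% and 70.2% for premalignant, and 78.9% and 71.4% for malignant libraries. The 3 stages did not overlap, in the order wild type, premalignant, malignant, with means of 51.5% ± 14.0, 66.8% ± 4.8 and 75.2% ± 5.3 (SD, n = 2). The steps of 15.2 and 8.40 points and the whole difference of 23.6 points each gave the smallest exact permutation p possible, 0.333 (adjusted p = 0.875). With each part scaled to the median part of its library, they were 2.77, 2.85 and 5.61 points. Only the last of these kept an exact permutation p of 0.333. Within the narrow set premalignant minus wild type was 11.8 points, and within the wide set malignant minus premalignant was 4.98 points. Between the replicate 2 libraries of these stages, whose lists alone were deposited with quotation marks, malignant minus premalignant was 1.23 points. The order turned around when the median of the part's summits was used in place of the best, with differences of -15.7, -5.53 and -21.2 points, and when the sum was used, with differences of -4.80, -0.859 and -5.66 points.

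The gene for 28S, the large subunit RNA that carries the ribosome's catalytic centre, held 55 summits and ranked 1 to 3 among the parts in every library. Its best summit lay at 10981 to 10989 in 5 libraries and at 11878 in malignant replicate 1. The score reached 59.2% and 100% for wild type, 88.2% and 100% for premalignant, and 85.7% and 100% for malignant libraries, so replicate 2 of every stage had its best rDNA summit here. The stages overlapped, and their means of 79.6% ± 28.9, 94.1% ± 8.3 and 92.8% ± 10.1 (SD, n = 2) differed by 14.5 points or less (exact permutation p = 1 for each pair). The share of the summed rDNA score in 28S was 32.5% and 42.3% for wild type, 35.1% and 52.2% for premalignant, and 36.3% and 53.8% for malignant libraries.

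The 3' external spacer, the last part of the precursor, is short and held 10 summits. Its best summit lay at 13125 to 13159 in all 6 libraries. It reached 43.5% and 76.8% for wild type, 67.2% and 84.4% for premalignant, and 97.2% and 76.8% for malignant libraries. Wild type and premalignant values overlapped, and the lower malignant and the higher wild type value were equal to 3 digits. The malignant mean was 26.8 points above wild type (exact permutation p = 0.333, adjusted p = 0.875), with replicate SDs of 14.4 and 23.5 points. That difference was 10.2 points without wild type replicate 1 and 43.4 points without wild type replicate 2.

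At the end of the unit the signal stopped within a short distance. In the 4 lists with intergenic summits, the last summit of the unit lay between 13138 and 13369 and the first intergenic summit followed after 597 bp (wild type replicate 1), 1212 bp (premalignant replicate 2), 1065 bp (malignant replicate 1) and 1244 bp (malignant replicate 2). The score fell across that gap by factors of 74.8, 116, 72.9 and 155 in the same order. In wild type replicate 2 and premalignant replicate 1 the last summits of the unit, at 13373 and 13375, scored 8.71% and 27.1%, and the next summit of any score was in the upstream region, at 42598 and 42593.

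The intergenic spacer held the most summits of any part, 143, and the weakest. Their number was 43 and 0 for wild type, 0 and 44 for premalignant, and 14 and 42 for malignant libraries, so libraries with none and libraries with 42 or more occurred in the same stage. The best intergenic summit scored 1.16% in wild type replicate 1 (position 24638), 1.61% in premalignant replicate 2 (38826), 0.774% in malignant replicate 1 (24624) and 0.838% in malignant replicate 2 (23341). The first intergenic summits were at 13966, 14350, 14410 and 14403 and the last at 40284, 40327, 39918 and 40366 in the same order, so that the calls reached from one end of the spacer to the other, although malignant replicate 1 had none between 24624 and 39918. In no stage comparison did the mean best score differ by more than 0.227 points (exact permutation p = 1 for each). Wild type replicate 2 and premalignant replicate 1 entered those means as 0, so the means do not show that the stages were alike. Without premalignant replicate 1, premalignant minus wild type was 1.03 points. Within the wide set malignant minus premalignant was -0.799 points.

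These weak summits still ranked well within their own lists, although ranks were not corrected for the number of rDNA copies. The best ones stood at rank 615 of 116180 in wild type replicate 1, 95 in premalignant replicate 2, 202 in malignant replicate 1 and 102 in malignant replicate 2. The median intergenic summit was within the top 15.3%, 0.0397%, 1.73% and 0.0393% of those lists. In the same order 41 of 43, 44 of 44, 14 of 14 and 41 of 42 of them scored above the median peak of the list. None scored above the best peak outside rDNA, and the best of each list scored 0.297 to 0.776 times the median of the best 100 peaks outside rDNA.

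Intergenic positions recurred in part between the lists that had them. Of the 44 summits of premalignant replicate 2, 31 (70.5%) lay within 100 bp of a summit of malignant replicate 2, where 30.6% of the spacer is that close to one. Of the 43 summits of wild type replicate 1, 26 (60.5%) lay that close to a summit of malignant replicate 2 and 21 (48.8%) to one of premalignant replicate 2, against 30.6% and 32.0% of the spacer. Of the 14 summits of malignant replicate 1, 12 (85.7%) lay that close to one of wild type replicate 1, 8 (57.1%) to one of malignant replicate 2 and 6 (42.9%) to one of premalignant replicate 2, against 31.3%, 30.6% and 32.0% of the spacer. In the other direction, 6 of the 44 summits of premalignant replicate 2 (13.6%) lay that close to one of malignant replicate 1, against 10.2%, so that pair of lists was nearest to the share of the spacer. All 4 lists with intergenic summits had one at 18014 to 18058, at 18844 to 18872 and at 22078 to 22150, and such a place was also 23582, with summits of the other 3 lists within 100 bp of it. The scores at the first 3 places were 0.0665% to 1.37% of the best rDNA summit.

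The upstream region held 50 summits. Its best summit reached 100% and 88.2% for wild type, 82.9% and 38.8% for premalignant, and 74.5% and 12.9% for malignant libraries. Both wild type values were above all 4 Eµ-Myc values, and replicate 2 was below replicate 1 in every stage. The stage means were 94.1% ± 8.4, 60.9% ± 31.2 and 43.7% ± 43.6 (SD, n = 2). The premalignant mean was lower than wild type (difference -33.2 points) and so was the malignant mean (-50.4 points), each at the smallest exact permutation p possible (p = 0.333, adjusted p = 0.875). Malignant and premalignant values overlapped (difference -17.2 points, exact permutation p = 0.667). Within the narrow set the premalignant value was nearer to wild type, at a difference of -11.2 points, and within the wide set malignant minus premalignant was 4.86 points, of the opposite sign to the pooled difference. Over all libraries but malignant replicate 2, malignant minus premalignant was 13.6 points and malignant minus wild type -19.6 points. Without malignant replicate 1, malignant minus wild type was -81.2 points.

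Set against the best summit of the transcribed unit in the same list, the best upstream summit scored 1.69 and 0.882 times as high for wild type, 0.829 and 0.388 times for premalignant, and 0.745 and 0.129 times for malignant libraries. On the log2 scale the stage means were 0.29 ± 0.66, -0.82 ± 0.77 and -1.69 ± 1.79 (SD, n = 2). The differences from wild type were -1.11 for premalignant and -1.98 for malignant cells (exact permutation p = 0.333 each), and malignant minus premalignant was -0.87 (exact permutation p = 0.667). That last value turned to 0.39 without malignant replicate 2, and malignant minus wild type shrank to -0.71. Within the narrow set premalignant minus wild type was -0.56, and within the wide set malignant minus premalignant was -0.33.

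The upstream signal was made of a few recurring summits. All 6 libraries had summits at 43181 to 43228, at 43434 to 43506 and at 44468 to 44546. The last of these scored 28.1% and 31.4% for wild type, 18.2% and 10.4% for premalignant, and 12.9% and 11.99% for malignant libraries, with both wild type values above the other 4. The middle one scored 100% and 88.2% for wild type, 57.9% and 10.3% for premalignant, and 27.5% and 12.9% for malignant libraries, again with wild type on top. The first showed no such order, with 23.3% and 71.8% for wild type, 82.9% and 38.8% for premalignant, and 74.5% and 2.23% for malignant libraries.

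The upstream edge differed by set. All 3 libraries of the narrow set had a summit at 42593 to 42603, scoring 8.46% to 19.0%, and the first upstream summit above 5% in the wide set came later, at 43197 to 43468. In all, 5 libraries had a summit at 44958 to 45002, and 3 had one at 45153 to 45214. The last regions ended at 46302 to 46327, which is 1089 to 1365 bp past their last summit. The spacer promoter, the enhancer repeats and the gene promoter share this stretch, and the rule does not divide them.

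**Figure D2:**
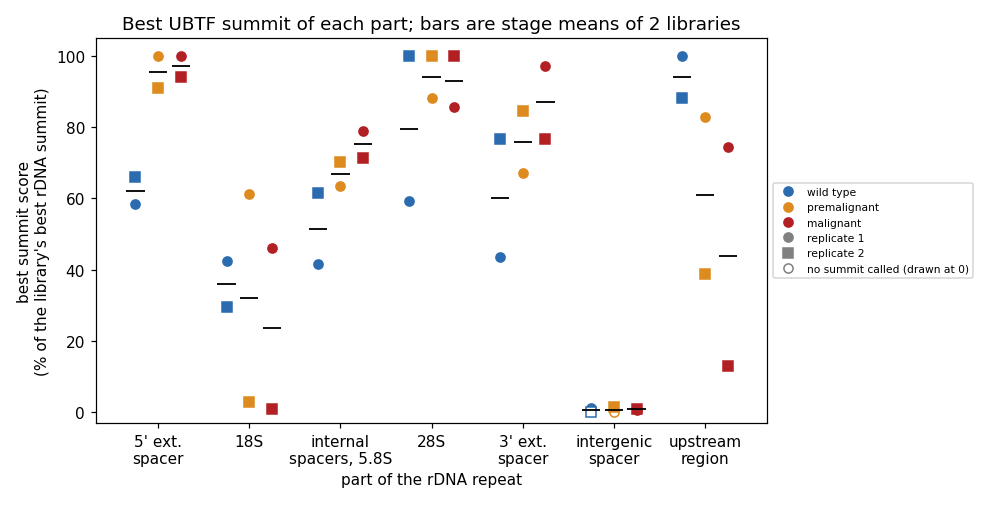
The x axis gives the 7 parts of the repeat and the y axis the score of the best summit of the part as a percent of the library's best rDNA summit. Points are libraries (circles replicate 1, squares replicate 2, open symbols libraries with no summit in the part), and black bars are means of 2 libraries. Wild type points lie below the Eµ-Myc points in the 5' external spacer and above them in the upstream region, and in 18S the squares of the premalignant and malignant stages lie at 2.99% and 0.862%.

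The order of the parts by their best score was much alike across libraries. Kendall's W, which is 1 when all libraries rank the parts alike and lower the less they do, was 0.806 over the 7 parts and 6 libraries. The intergenic spacer ranked last in all 6, in wild type replicate 2 and premalignant replicate 1 because it had no summit and counted as 0. The 18S gene was at rank 6 in all but wild type replicate 1, where it was at rank 5. 28S led in replicate 2 of every stage, the 5' external spacer led in premalignant replicate 1 and malignant replicate 1, and the upstream region led in wild type replicate 1 alone. The upstream region was at ranks 1 and 2 in wild type, at ranks 3 and 5 in premalignant and at rank 5 in both malignant libraries. Premalignant replicate 2 and malignant replicate 2 had the same order throughout.

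The number of summits varied most in the intergenic spacer, from 0 to 44, and from 20 to 34 in the transcribed unit as a whole. The 5' external spacer had 11 and 8 summits for wild type, 10 and 7 for premalignant, and 6 and 7 for malignant libraries. The malignant counts lay below the wild type counts, with a difference of means of -3 (exact permutation p = 0.333, adjusted p = 1). The internal spacers had 8 and 5 summits for wild type, 6 and 4 for premalignant, and 5 and 3 for malignant libraries, with overlapping stages. Within each replicate number the count fell at each step (exact sign-flip permutation p = 0.5 for each pair of stages, the smallest possible). The labels do not mark the numbers as pairs. The 28S gene had 10 summits in 4 libraries, 8 in premalignant replicate 2 and 7 in malignant replicate 2. The upstream region had 6 to 11 summits, with overlapping stages. Per kb, the 3' external spacer had 1.81 or 3.61 summits and 28S had 1.48 to 2.12, while the intergenic spacer of premalignant replicate 2, with 1.59 per kb, was called almost as densely at far lower scores.

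**Figure D3:**
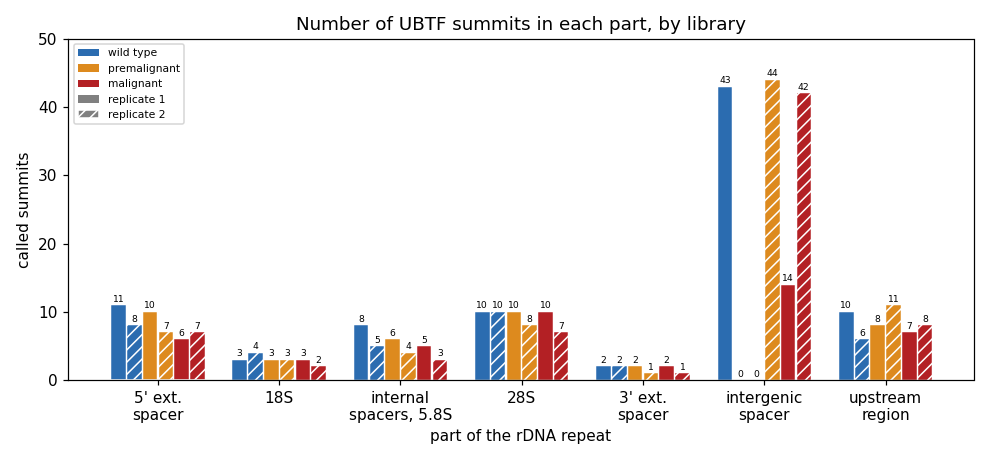
The x axis gives the 7 parts of the repeat and the y axis the number of called summits, with 1 bar per library (plain bars replicate 1, hatched bars replicate 2) and the count above it. The transcribed unit as a whole has 20 to 34 summits in each library, whereas the intergenic spacer has 42 to 44 summits in 3 libraries, 14 in 1 and none in the other 2.

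Positions with a summit of all 6 libraries within 100 bp numbered 17, of which 14 lay in the transcribed unit and 3 upstream. They were at 2006, 2608 and 3389 in the 5' external spacer, 4231 and 4777 in 18S, 6556 and 7358 in the internal spacers, 9119, 10146, 10987, 11261, 11877 and 12596 in 28S, 13132 in the 3' external spacer, and 43196, 43458 and 44471 upstream. For 2006, 4231 and 11261 the 6 summits lay within 100 bp of the position but not all of each other. The score at 10987 in 28S was the most evenly high, from 59.2% to 100% with a median of 94.1%. The score at 2006 was low throughout, from 9.55% to 26.5%. At 10146 the score was 43.5% and 84.4% for wild type, 62.1% and 99.4% for premalignant, and 76.6% and 93.1% for malignant libraries, so replicate 2 was higher in every stage.

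Other shared positions set 2 libraries apart from the rest, premalignant replicate 2 and malignant replicate 2. These also had the longest lists, 575674 and 563265 peaks, and the only ones deposited with quotation marks. At 11877 in 28S the score was 48.1% and 41.4% for wild type, 62.9% and 9.02% for premalignant, and 85.7% and 12.7% for malignant libraries. At 4231 in 18S it was 42.4% and 25.3%, 58.6% and 1.72%, and 32.4% and 0.0989% in the same order. At 6556 in the internal spacers it was 40.4% and 49.3%, 45.5% and 11.5%, and 68.8% and 22.7%. At these 3 places both were below the other 4 libraries. Over the 17 positions those 2 libraries had the highest Spearman correlation of any pair, 0.892, whereas the replicates of a stage correlated at 0.61 for wild type, 0.132 for premalignant and 0.397 for malignant cells; the positions share a library and are not independent, so these values are descriptions.

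**Figure D4:**
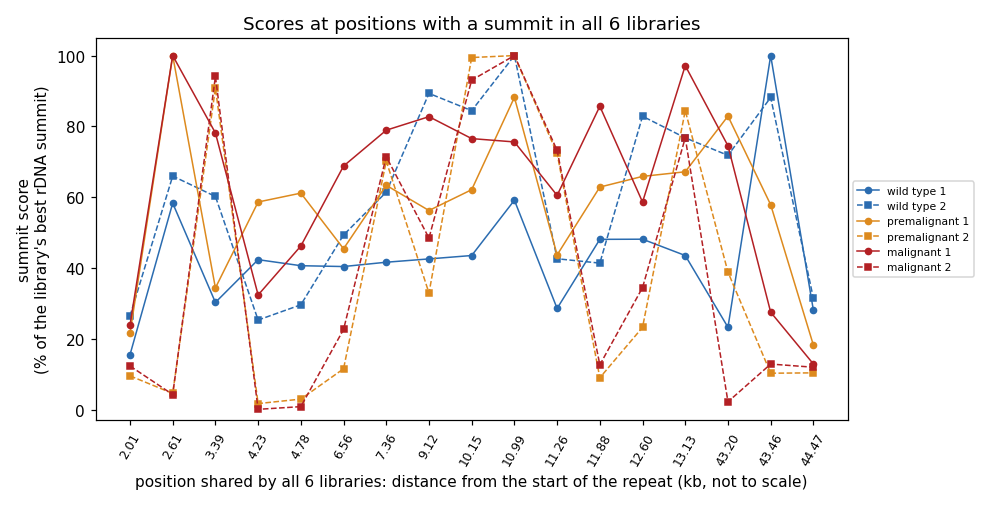
The x axis lists the 17 positions that have a summit in all 6 libraries, in order along the repeat and labelled in kb from its start (not to scale), and the y axis is the summit score as a percent of the library's best rDNA summit. Each line is 1 library (solid replicate 1, dashed replicate 2). The dashed premalignant and malignant lines run close together, low at 2.61, 4.23, 4.78 and 11.88 kb and high at 3.39, 10.15 and 10.99 kb.

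The rDNA repeat held the best peak of all 6 lists, with no correction for the number of rDNA copies here or in the ratios below. The best rDNA summit scored 25.6 and 8.55 times the median of the best 100 peaks outside rDNA for wild type, 32.4 and 48.3 times for premalignant, and 57.8 and 74.1 times for malignant libraries. The stages did not overlap and stood in the order wild type, premalignant, malignant. On the log2 scale the means were 3.89 ± 1.12, 5.31 ± 0.41 and 6.03 ± 0.25 (SD, n = 2), with differences of 1.42, 0.73 and 2.14 for premalignant minus wild type, malignant minus premalignant and malignant minus wild type (exact permutation p = 0.333 each). Within the narrow set premalignant minus wild type was 1.13, and within the wide set malignant minus premalignant was 0.44. The wild type libraries lay far apart: malignant minus wild type was 1.35 without wild type replicate 2 and 2.94 without replicate 1, and premalignant minus wild type was 0.63 and 2.21.

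The order depended on the yardstick. Against the single best peak outside rDNA the ratios were 3.19 and 1.34 for wild type, 2.10 and 4.42 for premalignant, and 1.94 and 3.51 for malignant libraries, and malignant minus premalignant was then -0.22 on the log2 scale. Against the best 10 peaks the differences were 0.86, 0.43 and 1.29, and all pairs of stages overlapped (exact permutation p of 0.667, 1 and 0.667). Against the best 1000 peaks they were 1.97, 0.92 and 2.88, and malignant and premalignant values overlapped (exact permutation p = 0.667). The number of rDNA summits that outscored every other peak of the list was 18 and 7 for wild type, 16 and 12 for premalignant, and 15 and 10 for malignant libraries.

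By part, the same ratio to the best 100 peaks elsewhere separated the stages in most of the transcribed unit. In the 5' external spacer it was 14.9 and 5.64 for wild type, 32.4 and 43.9 for premalignant, and 57.8 and 69.7 for malignant libraries. In the internal spacers it was 10.7 and 5.25, 20.5 and 33.9, and 45.6 and 52.9, in 28S 15.2 and 8.55, 28.6 and 48.3, and 49.5 and 74.1, and in the 3' external spacer 11.2 and 6.56, 21.7 and 40.8, and 56.1 and 56.9. These 4 parts share the denominator of their library and are not independent of each other. In 18S the ratios were 10.9 and 2.53, 19.8 and 1.44, and 26.7 and 0.638, and in the upstream region 25.6 and 7.54, 26.8 and 18.8, and 43.1 and 9.55, with the stages overlapping in both.

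**Figure D5:**
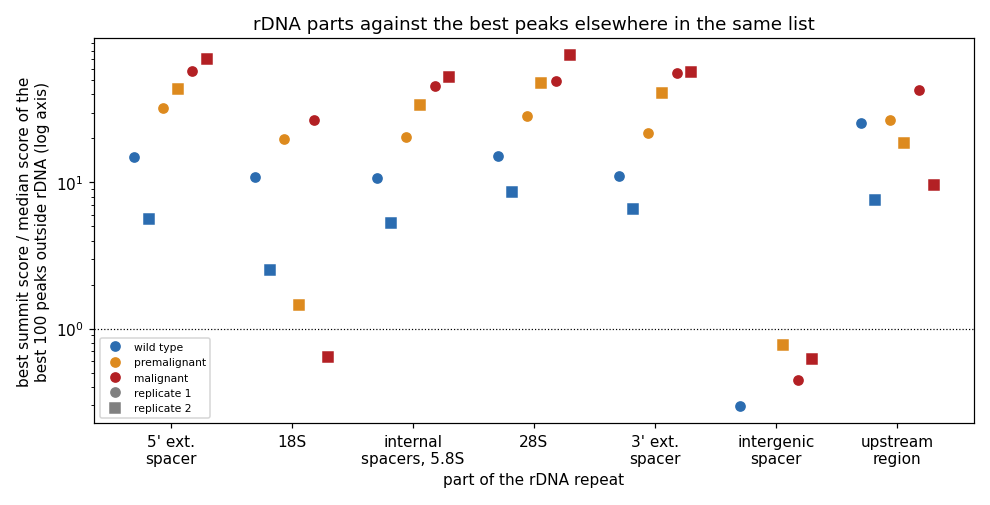
The x axis gives the 7 parts of the repeat and the y axis, a log axis, the score of the part's best summit divided by the median score of the best 100 peaks outside rDNA in the same list, where the dotted line marks a ratio of 1. Points are libraries (circles replicate 1, squares replicate 2). In the 5' external spacer, internal spacers, 28S and 3' external spacer the malignant points lie above the premalignant ones and those above wild type, and all intergenic points lie below 1.

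Single summits were then looked for in the other library of their stage. In wild type, 32 of 87 summits of replicate 1 (36.8%, exact 95% binomial interval 26.7% to 47.8%) and 32 of 35 of replicate 2 (91.4%, 76.9% to 98.2%) had a summit of the other replicate within 100 bp, beside 62.2% and 39.2% of all peaks of those lists. In premalignant cells 21 of 39 (53.8%, 37.2% to 69.9%) and 21 of 78 (26.9%, 17.5% to 38.2%) did, beside 41.8% and 5.68% of all peaks. In malignant cells 26 of 47 (55.3%, 40.1% to 69.8%) and 26 of 70 (37.1%, 25.9% to 49.5%) did, beside 36.9% and 18.3%. The intervals treat summits as independent, although neighbours share called regions. Each compares 1 library with 1 other and measures no spread within a stage. Among the best 1000 peaks outside rDNA, the share was 99.9% and 99.8% for wild type, 97.3% and 59.9% for premalignant, and 83.0% and 86.1% for malignant libraries. The rDNA share was thus above that of the whole list in 5 libraries but below that of the best 1000 peaks elsewhere in all 6. It was below the whole list in wild type replicate 1, where none of the 43 intergenic summits could recur because the other replicate has none. The same held for the 44 intergenic summits of premalignant replicate 2.

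Within the transcribed unit alone, 26 of 34 and 26 of 29 summits recurred in wild type, 15 of 31 and 15 of 23 for premalignant, and 14 of 26 and 14 of 20 for malignant cells. Summits stand so close together there that 43.0% and 50.2%, 34.5% and 45.6%, and 30.0% and 38.7% of all positions of the unit lie within 100 bp of a summit of the other replicate. Upstream, 6 of 10 and 6 of 6, 6 of 8 and 6 of 11, and 4 of 7 and 4 of 8 recurred. Among intergenic summits, 8 of 14 and 8 of 42 recurred between the malignant replicates, where alone both lists had any, and 30.6% and 10.2% of the spacer lie that close to a summit of the other list. In all 6 libraries the share of the unit's summits that recurred was above that share of its positions; the 2 shares were set side by side and not tested.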

How the data were processed

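UBTF ChIP-seq was measured in 6 libraries, 2 for each of 3 stages. Per the methods of the study, read pairs were aligned by the authors to mm9 plus 1 mouse rDNA copy (bowtie2), duplicates were dropped, and SPP called peaks. The study then kept for its comparisons only common peaks that passed a limit on the irreproducible discovery rate between replicates. The lists used here hold 1 library each, and no such filter was applied here. The submitters' processing notes name CASAVA 1.8.2, Bowtie and Picard 1.110. The deposited score column holds the caller's own score, unscaled between libraries. The q-value column as deposited is a linear false discovery rate, and the p-value column only a placeholder. The lists give no read counts, so depth is unknown, called peaks move with it, and intervals cover counting error only. The labels name no animals; the study took individual animals as its biological replicates and describes these libraries as separate replicate experiments.

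Positions are start plus summit offset, as deposited. The stage of each library came from its label. Line ends, quotation marks and chromosome prefixes were made alike. Summits were placed by the stated bounds, and a part without a summit counted as 0. Stage means were compared with two-sided exact permutation tests, which with 2 against 2 libraries cannot go below p = 0.333, adjusted by Benjamini-Hochberg over 21 part and stage pairs. Named summits were the best of each part and library, positions shared within 100 bp by all 6 libraries, and the first and last intergenic summits. The 4 intergenic places shared by 4 lists and the upstream summits found in 3 or 5 lists were named after their values were seen. Members and lists were chosen with earlier results of these data known. Alternatives changed the statistic, placement, yardstick, distance, list length, false discovery rate limit (0.01) and libraries. The scripts were tested on simulated data and used Python 3.11.15, numpy 2.4.6, scipy 1.17.1, pandas 2.3.3 and matplotlib 3.10.9. The sequence of the rDNA copy was not used here, so no sequence is shown.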

Additional observations from a re-analysis of the deposited data

How the results depend on the processing

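With 2 libraries against 2 the exact permutation test used here cannot go below p = 0.333, so only direction and size are compared, and the part of depth cannot be checked because the lists hold no read counts. Of 413 differences for single parts under the alternatives, 288 kept their sign and 125 did not. Of the 86 from stage pairs that did not overlap, 71 kept it. Of the other 15, 5 became 0 when parts were placed by the middle of the region and 10 took the opposite sign, as follows. Measured by the median score of a part, premalignant minus wild type was -13.4 points in the 5' external spacer and -15.7 in the internal spacers, where malignant minus premalignant was -5.53 and malignant minus wild type -21.2. Measured by the sum, the 5' external spacer gave -6.27 for premalignant and -5.63 for malignant minus wild type, and the internal spacers gave -4.80, -0.859 and -5.66 for premalignant minus wild type, malignant minus premalignant and malignant minus wild type. With 1 summit for each region, malignant minus wild type counts in the 5' external spacer became 0.5. Against the best peak outside rDNA alone, a yardstick chosen after seeing the data, malignant minus premalignant was -0.22. Kendall's W was 0.935 when parts were placed by the middle of the region, which puts the whole unit in 1 part because its summits share a region, and 0.952 within the wide set, also chosen after seeing the data. Summits found again were 38.5% within 200 bp in premalignant replicate 2, 38.3% within 50 bp and 72.3% within 200 bp in malignant replicate 1, and 25.7% within 50 bp in malignant replicate 2. Leaving out each library in turn gave 0.79 to 0.85 for Kendall's W. For malignant minus wild type it gave 1.35 to 2.94 for the log2 ratio to peaks elsewhere and -3.24 to -0.71 for that of the upstream region to the unit. The replicate numbers were not taken as pairs, since the labels name no shared animal and each stage has 2 numbers, although deviations of same-numbered libraries over the 17 shared positions correlated at 0.491, 0.254 and 0.851. With the replicate number as a block, the log2 ratios to peaks elsewhere differed by 1.42, 0.73 and 2.14, as without it (exact sign-flip permutation p = 0.5 each, the smallest possible). For the upstream region the malignant value was below the premalignant one within both numbers, at -17.2 points and a log2 ratio of -0.87 (exact sign-flip permutation p = 0.5 each).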
